A study of Mus musculus with 12 samples.

Results

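The 8 transcripts described here encode the NR4A orphan nuclear receptors (Nr4a1, Nr4a2 and Nr4a3), the zinc finger factors Egr1, Egr2 and Egr3, and the corepressors Nab1 and Nab2 that bind EGR proteins. They were chosen by name and are 8 of the 56691 mouse genes in the deposited count table, and all 8 passed the filter on low counts, which asks for at least 30 reads summed over the 12 samples. Splenic CD4+ T cells came from Tg4 Nr4a3-Tocky IL-10 GFP mice, which carry a T cell receptor transgene for a myelin basic protein peptide, a Timer protein made when Nr4a3 is transcribed, and a GFP reporter of Il10. Each mouse was first given [4Y]-MBP peptide at 4 mg/kg, then antibody after 24 h, then a second peptide dose of 0.4 mg/kg 30 min later, and the spleen was collected 12 h after that dose. The 4 groups of 3 mice were defined by the antibody given: an isotype pool (isotype), anti-Lag3, anti-PD-L1, or both blocking antibodies together, the co-blockade (CB). The methods state that mice of both sexes, typically aged 6 to 8 weeks, were used. Every library came from cells sorted as CD4+ and positive for both the blue and the red form of the Timer protein, so Nr4a3 activity was a condition for entering any of the groups, and the 12 libraries include no Timer-negative cells. For the multiplexed sort the cells of each group were stained for CD4 with a dye of their own, so dye and group cannot be told apart.

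NR4A and EGR genes are immediate-early genes: they are transcribed soon after a T cell receptor is engaged, without new protein synthesis, and their transcripts are short-lived. Calcium signals acting through calcineurin and NFAT, and ERK signals acting through ternary complex factors and SRF, feed into them to different degrees. In T cells EGR2, EGR3 and the NR4A factors are known for their part in restraining a stimulated cell, in anergy, tolerance and exhaustion, while EGR1 and NAB proteins shape the early response itself. The comparisons ask whether blockade of either checkpoint, or of both, altered these factors in cells that had all passed through Nr4a3 activation.

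The total number of reads on genes was between 16449370 and 22151025 per sample (median 19176439). Levels are given as CPM, which are reads scaled to a common library size after TMM, so they serve to compare samples for 1 gene and not genes with each other. The markers Cd3e, Cd4 and the other 6 CD4 T cell markers summed to 2744 to 2867 CPM in isotype, 2711 to 2733 with anti-Lag3, 2618 to 2903 with anti-PD-L1 and 2428 to 2520 CPM with CB. Erythroid markers summed to 241 to 451, 216 to 289, 171 to 218 and 150 to 198 CPM in the same order, so both groups given anti-PD-L1 were below the isotype samples. CD8 T and NK cell markers summed to 66.7 to 78.1 CPM in isotype and 52.0 to 82.1 with anti-Lag3. They summed to 42.0 to 51.2 CPM with anti-PD-L1 and 42.1 to 52.3 CPM with CB. Cd8b1 (group means 26.9 to 42.0 CPM) and Gzma (9.4 to 26.3) were the largest parts of these sums. The group mean of Cd8a was 0.077 to 1.69 CPM. Myeloid markers summed to 14.5 to 24.5 CPM with anti-PD-L1 and 5.76 to 12.6 CPM in the other groups, and B cell markers to 329 to 433 CPM over all samples, with the groups overlapping. The part of these marker levels in the comparisons of groups was not tested. The labels say nothing of sex, but Xist, which is transcribed from the inactive X, had at most 2 reads in the 4 samples numbered 1 and 237 to 360 CPM in the 4 numbered 3. Ddx3y, a Y-linked gene, was at 56.0 to 81.6 CPM in the samples numbered 1 and had at most 1 read in those numbered 3. Isotype sample 2 held both, with 58.4 CPM of Ddx3y and 11.3 CPM of Xist. The other samples numbered 2 had 260 to 491 CPM of Xist, with 19 reads of Ddx3y (0.94 CPM) in anti-Lag3 sample 2 and 0 reads in the anti-PD-L1 and CB samples.

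Sequence before a RefSeq start of each NR4A gene is shown because all 3 windows share a feature. Windows of 250 bases before a transcription start, from RefSeq on GRCm38.p6, were matched by symbol for 6 of the 8 members. The windows of Nr4a1 (chr15:101266596-101266845, plus strand), Nr4a2 (chr2:57124004-57124253, minus strand) and Nr4a3 (chr4:48045055-48045304, plus strand) are printed 5′ to 3′, with each match to the CRE half-site TGACG, on either strand, in capitals. The RefSeq start used lies 12577 bases inside the annotated gene for Nr4a1 and 152 bases inside it for Nr4a3, so the Nr4a1 window and most of the Nr4a3 window fall within the gene, and it is at the first base of the gene for Nr4a2.
Nr4a1: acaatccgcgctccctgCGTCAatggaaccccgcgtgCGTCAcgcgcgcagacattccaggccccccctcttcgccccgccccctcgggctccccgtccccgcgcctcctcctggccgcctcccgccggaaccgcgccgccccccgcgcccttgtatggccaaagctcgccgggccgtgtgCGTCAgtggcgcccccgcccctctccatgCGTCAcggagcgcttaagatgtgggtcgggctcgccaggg
Nr4a2: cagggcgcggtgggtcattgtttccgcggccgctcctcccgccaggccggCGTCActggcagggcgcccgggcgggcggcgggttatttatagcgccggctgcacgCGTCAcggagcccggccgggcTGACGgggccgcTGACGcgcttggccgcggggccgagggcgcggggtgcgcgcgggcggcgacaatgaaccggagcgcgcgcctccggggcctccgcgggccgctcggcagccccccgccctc
Nr4a3: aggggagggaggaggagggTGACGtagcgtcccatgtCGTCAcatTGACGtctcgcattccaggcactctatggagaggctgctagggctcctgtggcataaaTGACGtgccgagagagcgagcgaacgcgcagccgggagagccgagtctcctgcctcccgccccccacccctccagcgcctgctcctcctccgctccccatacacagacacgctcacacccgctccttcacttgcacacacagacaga

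Each of these windows held 4 CRE half-sites, the element bound by CREB and ATF factors. Among all 32851 windows of the same length, 17.8% held at least 1 such match and 0.137% held at least 4. In Nr4a1 the matches began 233, 213, 69 and 40 bases before the start, in Nr4a2 200, 144, 123 and 111 bases before it, and in Nr4a3 231, 213, 205 and 147 bases before it. No NR4A window held the full palindrome TGACGTCA, which would count as 2 overlapping half-sites and was present in 1.55% of windows. The EGR element GCGNGGGCG occurred 1 time each in the windows of Nr4a1 and Nr4a2 and 3 times in that of Nab1, against 4.7% of windows with at least 1 match and 0.14% with at least 3. A CArG box, the element of SRF, lay in 4 of the 5 Egr2 windows and in 1.47% of all windows. The Egr2 windows that begin at 67537619, 67537620 and 67537680 overlap and hold the same box. The NFAT core GGAAA was matched 1 time in Nr4a2 and up to 3 times in the Egr2 windows and in 55.6% of all windows. The AP-1 element TGANTCA (6.75% of windows) and the NR4A element AAAGGTCA (1.34%) were not among the letters of any member's window. All searches covered both strands, and a match describes letters and not binding.

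**Figure D1:**
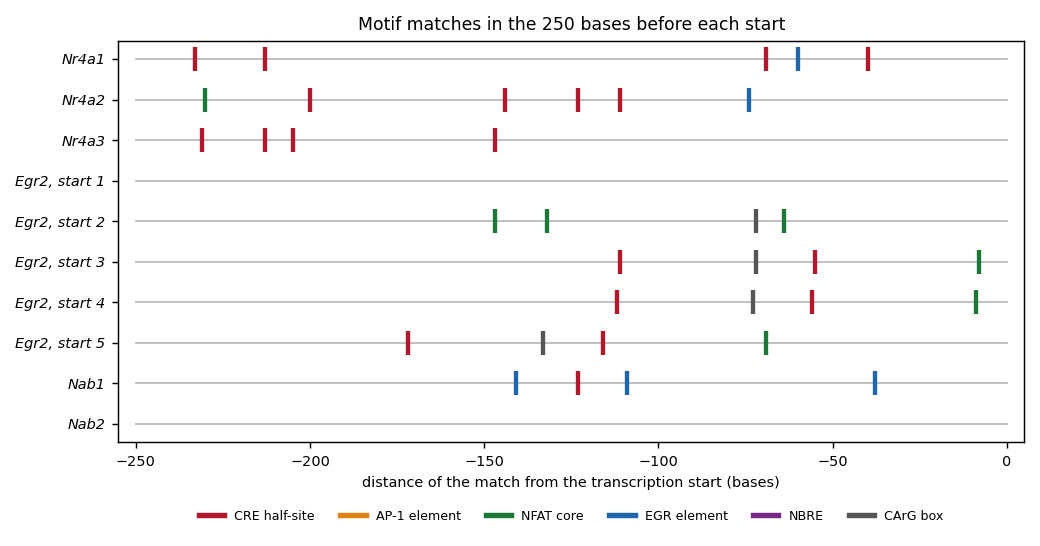
Positions of motif matches in the 250 bases before each RefSeq start of the 6 members with a window, with the distance from the start in bases on the horizontal axis and 1 line per start. The red marks are CRE half-sites, of which Nr4a1, Nr4a2 and Nr4a3 hold 4 each, and the Nab2 line and the first Egr2 line hold no match to any motif searched.

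No member passed an adjusted p of 0.05 in any of the 6 comparisons of groups or in the interaction, by edgeR's quasi-likelihood test on all 15138 genes. Over these 56 tests 1 unadjusted p was under 0.05, that of Nr4a1 between CB and anti-Lag3, and DESeq2 called no member either. The share of all tested genes called was 4.29% between CB and isotype, 0.694% between CB and anti-Lag3, 0.370% between CB and anti-PD-L1 and 0.0330% between anti-PD-L1 and isotype. The last 3 of these shares are 105, 56 and 5 genes, against 280, 178 and 56 in DESeq2 and 42 to 125, 4 to 57 and 0 to 10 with 1 sample left out, the lowest without CB sample 3 for the first 2 and without isotype sample 2 for the third. It was 0% between anti-Lag3 and isotype, between anti-PD-L1 and anti-Lag3 and in the interaction, where 788, 710 and 898 genes had an unadjusted p under 0.05 and DESeq2 called 9, 10 and 5 genes. Between CB and isotype 649 transcripts were called (353 higher and 296 lower), and none of the 8 members was among them. At a share of 4.29%, no call among 8 genes does not set them apart from other genes. The count of genes called between CB and isotype was 405 without isotype sample 1, 421 without CB sample 1 and 394 without CB sample 3. The DESeq2 counts given above came from tests against 0. Tested against a log2 change of 0.2, DESeq2 called 233 genes between CB and isotype and 41 between CB and anti-Lag3. In that test 18 genes were called between CB and anti-PD-L1 and 11 between anti-PD-L1 and isotype.

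**Figure D2:**
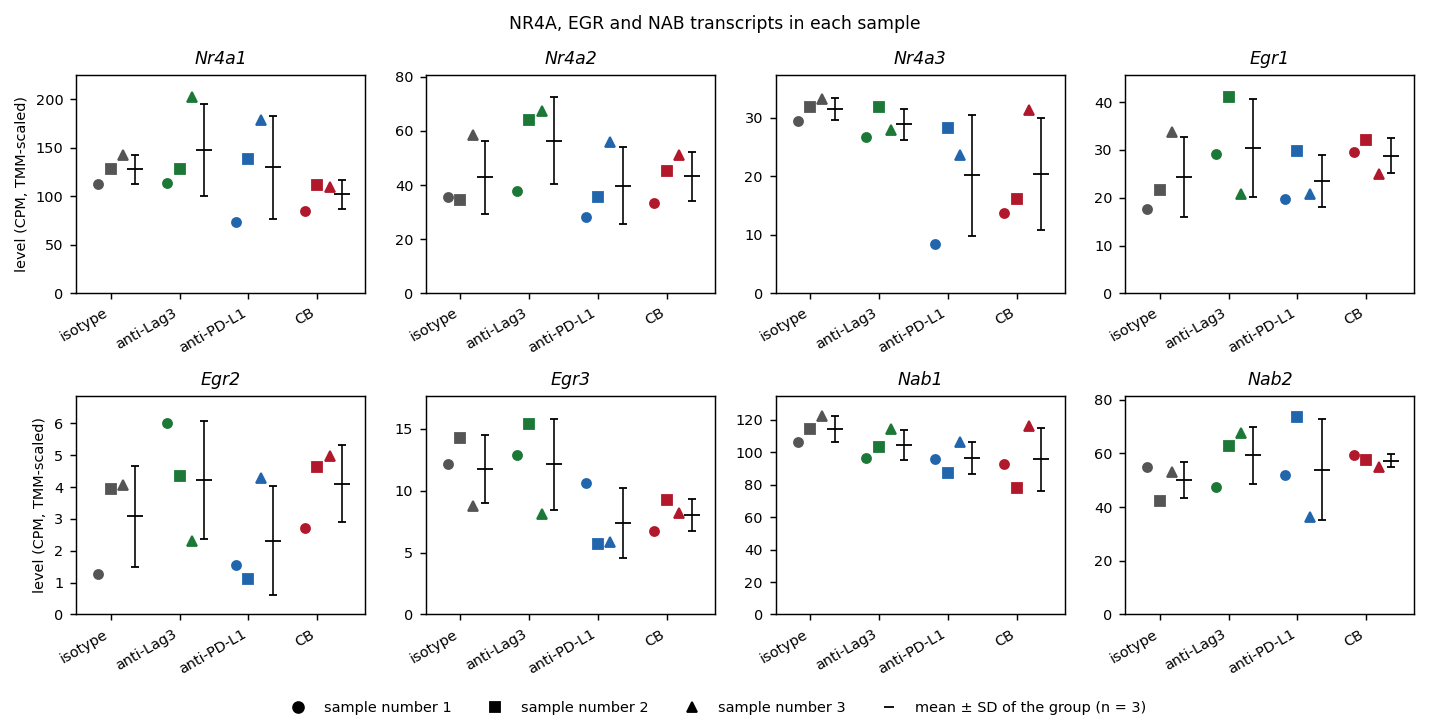
Level of each member in CPM (vertical axes start at 0) in the 3 samples of each group, with the mean and SD of the group beside them; the symbol gives the sample's number in its title. Nr4a1 samples of the CB group sit between 84.7 and 111 CPM, below the isotype samples, while for most members the groups overlap.

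Nr4a1, which encodes NUR77, lies on chromosome 15 (101254269-101274795, plus strand, GRCm38, ENSMUSG00000023034) and had 29570 reads over the 12 samples. Its level was 113, 128 and 143 CPM in the isotype samples 1, 2 and 3, 113, 128 and 202 CPM with anti-Lag3, and 73.2, 138 and 178 CPM with anti-PD-L1. In the CB group it was 84.7, 111 and 110 CPM. All 3 CB samples were thus below all isotype and all anti-Lag3 samples, and the anti-PD-L1 samples reached from below all CB samples to above all isotype samples. The order of the group means was anti-Lag3 (148 ± 47.7 CPM, SD, n = 3), anti-PD-L1 (130 ± 53.0), isotype (128 ± 15.1) and CB (102 ± 15.0). Between CB and isotype the log2 fold change was -0.32 (SE 0.22, 95% interval -0.77 to 0.12, adjusted p = 0.497), and it was -0.21 without CB sample 1. Between CB and anti-Lag3 it was -0.53 (SE 0.22, interval -0.98 to -0.09), with an unadjusted p of 0.021 and an adjusted p of 0.402 in edgeR. This difference kept its sign with each sample left out, between -0.69 and -0.24, the latter without anti-Lag3 sample 3. Without the filter on low counts the same fold change had an adjusted p of 0.0109, in a fit in which the prior degrees of freedom of edgeR went from 18.2 to infinite, so that every gene was given the trended spread and not its own. In a sorted population, fewer cells transcribing a gene and less RNA of it per cell cannot be told apart, which holds for every level given here.

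Nr4a2, which encodes NURR1, lies on chromosome 2 (57106830-57124003, minus strand, ENSMUSG00000026826) and had 10712 reads. It was at 35.7, 34.3 and 58.5 CPM in the isotype samples, at 38.0, 63.9 and 67.4 CPM with anti-Lag3, at 28.1, 35.5 and 55.9 CPM with anti-PD-L1 and at 33.4, 45.1 and 51.3 CPM with CB. Every group held a low and a high sample, and all groups overlapped. The mean was highest with anti-Lag3 (56.4 ± 16.1 CPM), followed by CB (43.3 ± 9.07), isotype (42.9 ± 13.6) and anti-PD-L1 (39.8 ± 14.4). The log2 fold change was 0.01 between CB and isotype (SE 0.25, interval -0.50 to 0.53). Its largest difference was between anti-PD-L1 and anti-Lag3, at -0.50 (SE 0.25, interval -1.02 to 0.02, adjusted p = 0.802), and was -0.83 without anti-PD-L1 sample 3 and -0.30 without anti-PD-L1 sample 1.

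Nr4a3, the gene that drives the Timer protein used for the sort, lies on chromosome 4 (48045153-48086447, plus strand, ENSMUSG00000028341) and had 5868 reads. Whether transcripts of the reporter transgene add to these reads is not given in the sources used here. The isotype samples were close to each other at 29.4, 31.9 and 33.2 CPM, and so were the anti-Lag3 samples at 26.8, 31.8 and 28.0 CPM. With anti-PD-L1 the level was 8.48, 28.3 and 23.7 CPM, and with CB it was 13.7, 16.2 and 31.4 CPM. The 3 anti-PD-L1 samples were all below the isotype samples, and 2 of 3 CB samples were. The means were 31.5 ± 1.91 CPM in isotype, 28.9 ± 2.64 with anti-Lag3, 20.4 ± 9.60 with CB and 20.2 ± 10.4 with anti-PD-L1, so the SD was larger in both groups that received anti-PD-L1. The log2 fold change against isotype was -0.64 with anti-PD-L1 (SE 0.33, interval -1.31 to 0.03, adjusted p = 0.593), -0.62 with CB (SE 0.33, interval -1.29 to 0.05, adjusted p = 0.377) and -0.12 with anti-Lag3 (SE 0.32). Without anti-PD-L1 sample 1, the lowest of all, the first of these was -0.27, and it was -0.96 without anti-PD-L1 sample 2. The second was -1.08 without CB sample 3 and -0.40 without CB sample 1, and the third -0.20 without anti-Lag3 sample 2 and -0.073 without anti-Lag3 sample 1. The cells of all groups had been selected for Timer protein, so these levels are of mRNA within a gate set on the same gene.

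Egr1, on chromosome 18 (34859823-34864984, plus strand, ENSMUSG00000038418), encodes the EGR factor best known as a readout of ERK signalling and had 6232 reads. It was at 17.7, 21.7 and 33.7 CPM in isotype, 29.3, 41.1 and 20.8 CPM with anti-Lag3, 19.8, 29.7 and 20.8 CPM with anti-PD-L1 and 29.5, 32.0 and 24.95 CPM with CB. The groups overlapped in every pair. The means ran from anti-Lag3 (30.4 ± 10.2 CPM) through CB (28.8 ± 3.58) and isotype (24.4 ± 8.37) to anti-PD-L1 (23.4 ± 5.46). With CB its log2 fold change from isotype was 0.24 (SE 0.27, interval -0.32 to 0.80, adjusted p = 0.78), and it was 0.054 without isotype sample 1 and 0.55 without isotype sample 3.

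Egr2, on chromosome 10 (67535475-67542188, plus strand, ENSMUSG00000037868), is an EGR factor tied to anergy and had the fewest reads of the 8, at 812 in all. Its level was 1.26, 3.93 and 4.08 CPM in isotype, 6.02, 4.36 and 2.31 CPM with anti-Lag3, 1.57, 1.12 and 4.28 CPM with anti-PD-L1 and 2.72, 4.62 and 4.98 CPM with CB. The CV within a group was 29.5% with CB and 44.0% to 73.6% in the other groups, and every pair of groups overlapped. Between CB and isotype the log2 fold change was 0.41 (SE 0.79), and its interval of -1.22 to 2.04 included changes in either direction. This fold change was 0.035 without isotype sample 1 and 0.66 without isotype sample 3. The difference between anti-PD-L1 and anti-Lag3 was -0.86 (SE 0.80, adjusted p = 0.964), and ran from -1.65 without anti-PD-L1 sample 3 to -0.52 without anti-Lag3 sample 1.

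Egr3, on chromosome 14 (70077203-70082614, plus strand, ENSMUSG00000033730), shares targets with Egr2 and had 2262 reads. It was at 12.1, 14.3 and 8.79 CPM in isotype, 12.9, 15.4 and 8.14 CPM with anti-Lag3, 10.6, 5.67 and 5.87 CPM with anti-PD-L1 and 6.71, 9.23 and 8.16 CPM with CB. Its mean was 12.1 ± 3.68 CPM with anti-Lag3 and 11.7 ± 2.75 in isotype, and 8.03 ± 1.27 with CB and 7.39 ± 2.81 with anti-PD-L1 and every pair of groups overlapped. The log2 fold change against isotype was -0.54 with CB (SE 0.39, interval -1.34 to 0.26, adjusted p = 0.541) and -0.67 with anti-PD-L1 (SE 0.39, interval -1.47 to 0.14, adjusted p = 0.593). With 1 sample left out the first was -0.72 to -0.38 and the second -1.02 to -0.50, and both share the isotype samples. Egr4, the fourth EGR gene and no member here, had 25 reads in all samples together and was not tested.

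Nab1, on chromosome 1 (52457294-52500679, minus strand, ENSMUSG00000002881), is a corepressor that binds EGR1 and EGR2 and had 23850 reads. It was at 106, 115 and 123 CPM in isotype, 96.4, 103 and 114 CPM with anti-Lag3, 95.8, 87.2 and 106 CPM with anti-PD-L1 and 92.8, 78.0 and 116 CPM with CB. Every pair of groups overlapped, and the CV within a group was 7.22% to 20.2%. In CB against isotype it had a log2 fold change of -0.26 (SE 0.14, interval -0.55 to 0.04, adjusted p = 0.397), and the SE of 0.14 was the smallest of the 8 members. It was -0.42 without CB sample 3 and -0.13 without CB sample 2.

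Nab2, on chromosome 10 (127660918-127668568, minus strand, ENSMUSG00000025402), is itself an EGR target in many cells and had 12775 reads. Its exons share 40 bases with Stat6, 151 bases with Nemp1 and 1050 bases with Gm16229 (0 reads) on the opposite strand, and the strand setting of the counting is not given in the sources used here, so reads in the shared bases may belong to either gene. It was at 54.8, 42.4 and 53.0 CPM in isotype, 47.4, 62.9 and 67.6 CPM with anti-Lag3, 51.9, 73.5 and 36.3 CPM with anti-PD-L1 and 59.5, 57.5 and 54.9 CPM with CB. The 3 CB samples were all above the isotype samples, the lowest of them at 54.9 against 54.8 CPM, and lay within the range of the single antibodies. In CB against isotype it had a log2 fold change of 0.19 (SE 0.20, interval -0.22 to 0.61, adjusted p = 0.743), and of 0.089 without isotype sample 2.

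**Figure D3:**
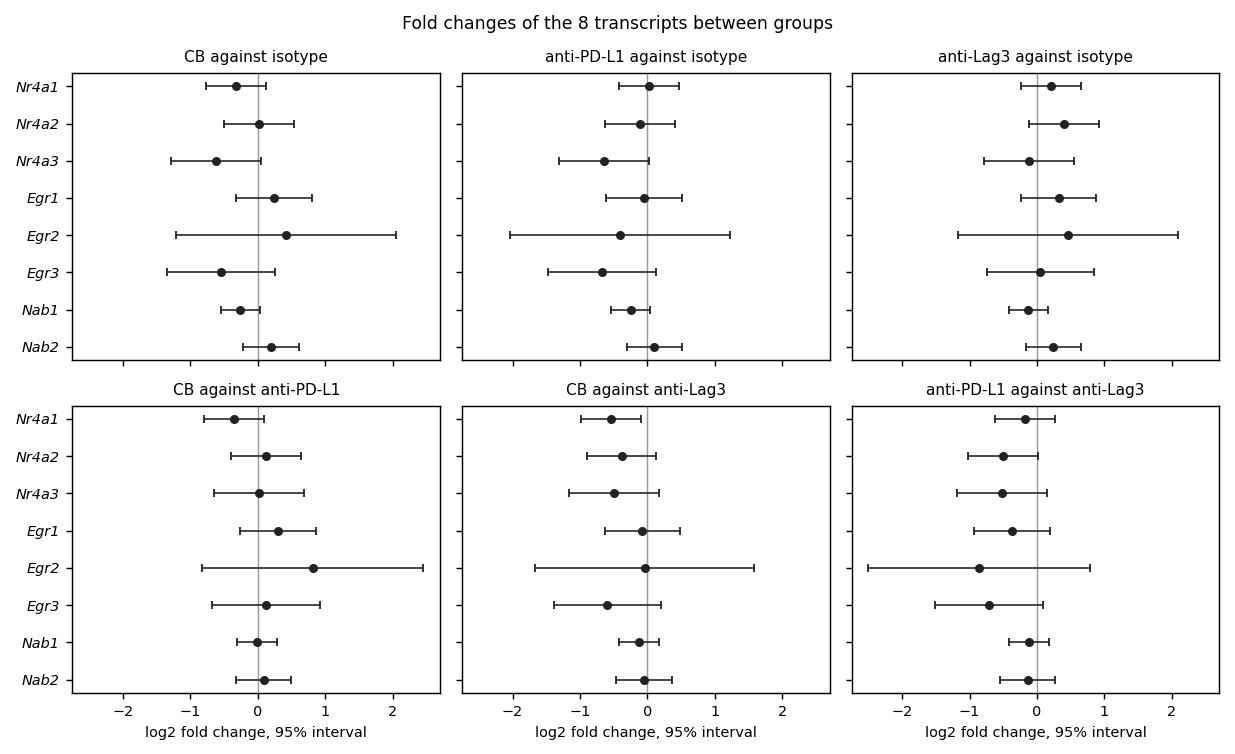
Log2 fold change (points) and 95% interval (bars) of each member in the 6 comparisons of groups, from edgeR's fit to all 12 samples. All intervals include 0 except that of Nr4a1 between CB and anti-Lag3, which runs from -0.98 to -0.09, and the intervals of Egr2 are the widest.

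Groups that do not overlap are frequent among all genes, and the members' counts have to be read beside that. Between CB and isotype 2 of 8 members did not overlap (Nr4a1 lower, Nab2 higher) against 20.0% of all tested genes. The count was 1 of 8 between anti-PD-L1 and isotype (Nr4a3 lower, background 11.8%) and 1 of 8 between CB and anti-Lag3 (Nr4a1 lower, background 14.8%). It was 0 of 8 between anti-Lag3 and isotype (10.1%), between CB and anti-PD-L1 (12.7%) and between anti-PD-L1 and anti-Lag3 (8.70%). In direction, all 8 members had a negative log2 fold change between anti-PD-L1 and anti-Lag3 (median -0.44) and all 8 between CB and anti-Lag3 (median -0.25), where the median of all genes was 0. With 1 sample left out, Egr1, Egr2, Nab1 and Nab2 turned positive in the latter and Nr4a1 and Nab2 in the former. These comparisons share the anti-Lag3 samples, and none of these differences was called. The interaction, which compares CB with the sum of both single antibodies on the log2 scale, was at -0.56 for Nr4a1 (SE 0.31, interval -1.19 to 0.07, adjusted p = 0.896), and at -0.84 to -0.26 with 1 sample left out, the latter without anti-PD-L1 sample 3.

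Genes that are linked to these factors were examined as lists. Of 16 genes tied to EGR factors in anergy or as targets, 1 was higher and 1 lower in CB than in isotype, where 4.29% of all tested genes were called, and the median was -0.03. Tnfrsf9, which encodes the costimulatory receptor 4-1BB, rose by 0.92 on the log2 scale (SE 0.18, adjusted p = 0.00269). Dgka, a diacylglycerol kinase that limits Ras signalling and is raised in anergic cells, fell by 0.65 on the log2 scale (SE 0.11, adjusted p = 6.21e-04). Neither call was lost with any sample left out. Of 9 genes tied to NR4A factors, among them Tox, Pdcd1 and Havcr2, none was called in any of the comparisons, and their median between CB and isotype was -0.13. Among 11 relatives and partners (RXR, SRF, ternary complex and MEF2 factors and Egr4) 9 were tested and none was called, 2 of 9 were positive and the median was -0.30 between CB and isotype. Of 20 other immediate-early genes 19 were tested, and 1 of them, Ier2, was lower in CB than in isotype (background 4.29%) at -0.65 (SE 0.17, adjusted p = 0.0255). The Ier2 call was lost without isotype sample 2 (adjusted p = 0.0599), isotype sample 3 (0.142), CB sample 1 (0.122) or CB sample 2 (0.115), and in DESeq2 tested against a log2 change of 0.2 (0.366). The median of these 19 genes was -0.03.

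Spleens were digested for 25 min at 37 °C before the sort, and such handling is known to induce immediate-early and heat shock genes. In a list of 14 genes of tissue-dissociation stress, which shares Fos, Fosb, Jun, Junb, Atf3, Ier2, Dusp1 and Zfp36 with the immediate-early list, 13 were tested and 3 were called in CB against isotype (background 4.29%). The chaperones Hspe1 (log2 fold change 0.68, adjusted p = 2.3e-05) and Hsph1 (0.70, adjusted p = 0.00115) were higher in CB than in isotype, and Ier2 was lower. The summed level of the list was 1814 to 2088 CPM in isotype and 2065 to 2345 with anti-Lag3. It was 1823 to 2305 CPM with anti-PD-L1 and 2260 to 2505 CPM with CB. The largest parts of this sum, as group means, were Hspa8 (649 to 784 CPM), Hspe1 (359 to 574) and Junb (389 to 449). Hspa1a was at 0.087 to 0.64 CPM and Hspa1b at 0.46 to 0.78. The part of this list in the members' levels was not tested. Hsph1 was also higher in CB than in anti-Lag3 (0.55, adjusted p = 0.0323), a call that was lost with any of the 6 samples of these groups left out (adjusted p 0.0566 to 0.249) and in DESeq2 against 0.2 (0.755). Among markers of other cells, Gzma (-1.49, adjusted p = 0.00569), Hbb-bs (-0.75, adjusted p = 0.00509) and Hbb-bt (-0.99, adjusted p = 0.00363) were lower in CB than in isotype. Of the 7 CD8 T and NK cell markers, 2 went the other way without being called, Klrb1c (2.20, SE 1.985) and Prf1 (1.58, SE 1.339). The T cell markers Cd4 (-0.50, adjusted p = 0.00918) and Cd3e (-0.39, adjusted p = 0.0401) were also lower in CB than in isotype. Hbb-bs was not called without isotype sample 1 (-0.47, adjusted p = 0.0852), nor Cd4 without isotype sample 2 (0.0516) or CB sample 3 (0.0636), nor Cd3e without isotype sample 2 (0.102), isotype sample 3 (0.18), CB sample 2 (0.0829) or CB sample 3 (0.264). DESeq2 against 0.2 called none of Hbb-bs (0.0792), Cd4 (0.231) and Cd3e (0.713), and Cd3e was not called in a fit of the CB and isotype samples alone (0.0725). No other gene of these lists was called in any comparison.

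Levels inside the groups varied with the number in the sample titles. In all 4 groups the sample numbered 1 had the lowest Nr4a1 and the lowest Nr4a3, an order that 1.67% of all tested genes had. In all 4 groups the sample numbered 3 had the highest Nr4a2 and the highest Nab1, against 1.29% of genes. Nr4a1 was at 95.9 ± 20.2 CPM in the 4 samples numbered 1 (SD), 126 ± 11.1 in those numbered 2 and 158 ± 40.4 in those numbered 3. Nr4a2 was at 33.8 ± 4.23, 44.7 ± 13.7 and 58.3 ± 6.78 CPM in the same order. Nr4a3 was at 19.6 ± 10.1, 27.0 ± 7.44 and 29.1 ± 4.16 CPM, and Nab1 at 97.8 ± 5.76, 95.7 ± 16.3 and 115 ± 6.70 CPM. Every sample numbered 3 was above every sample numbered 1 for Nr4a2 and for Nab1 (106 CPM at both the highest number 1 and the lowest number 3 sample), that is for 2 of 8 members and 1.76% of all genes.

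After this had been seen, the sample number was tested over all genes as a term with 2 degrees of freedom beside the 4 groups in edgeR, and 40 of 15138 genes (0.264%) were called, Nr4a1 and Nr4a2 among them. Nr4a1 was higher by 0.71 (log2, SE 0.12) in number 3 than in number 1 and by 0.41 (SE 0.12) in number 2 than in number 1 (adjusted p = 0.0049, rank 13 of all genes by p). Nr4a2 was higher by 0.79 (SE 0.17) and 0.38 (SE 0.17) in the same contrasts (adjusted p = 0.0372). Nr4a3 had differences of 0.69 and 0.56, with an SE of 0.24 each, that did not pass (adjusted p = 0.782), and the first was 0.43 without anti-PD-L1 sample 1. The EGR and NAB members were not called, with number 3 minus number 1 at 0.10 for Egr1 (SE 0.23), 0.70 for Egr2 (SE 0.78), -0.44 for Egr3 (SE 0.35), 0.23 for Nab1 (SE 0.12) and -0.03 for Nab2 (SE 0.17). With 1 sample left out the Egr2 value ran from 0.21 without anti-PD-L1 sample 3 to 1.177 without anti-Lag3 sample 3, and the Egr3 value from -0.62 without CB sample 1 to -0.19 without anti-PD-L1 sample 1. Nab1 had an unadjusted p of 0.0437 and an adjusted p of 1. The Nr4a1 call was lost without anti-Lag3 sample 3 (adjusted p = 0.0549), anti-PD-L1 sample 1 (0.161) or anti-PD-L1 sample 3 (0.0742). The Nr4a2 call was lost without any 1 of the 8 samples numbered 1 or 3 (adjusted p 0.0623 to 0.408). Each difference kept its sign, at 0.54 to 0.81 for Nr4a1 and 0.71 to 0.87 for Nr4a2, and the number of genes called was 17 without anti-PD-L1 sample 1, 23 without anti-PD-L1 sample 3, 26 without anti-Lag3 sample 3 and 25 without either isotype sample 1 or CB sample 1.

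**Figure D4:**
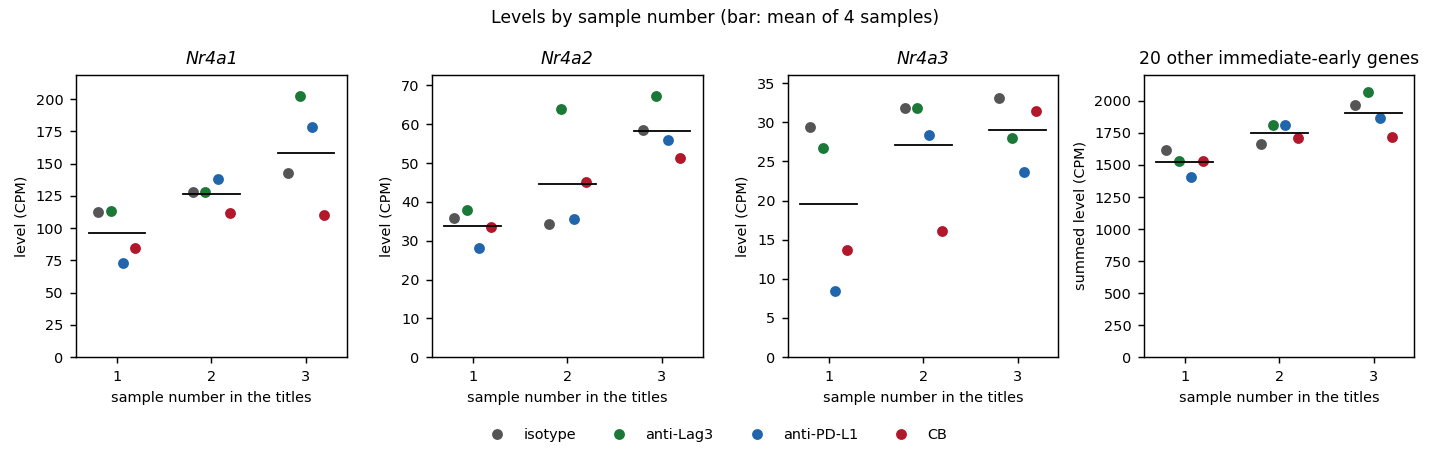
Level of Nr4a1, Nr4a2 and Nr4a3 and the summed level of 20 other immediate-early genes (CPM, axes from 0) by the number in the sample title, coloured by group, with bars at the mean of 4 samples. The 4 samples numbered 1 hold the lowest summed level, 1408 to 1615 CPM, and Nr4a2 in the samples numbered 3 lies above that in all samples numbered 1.

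Other genes that differed with the sample number included 3 of the immediate-early list. Junb was higher by 0.49 in number 3 than in number 1 (SE 0.08, adjusted p = 0.00298), Fosb by 0.96 (SE 0.19, adjusted p = 0.00806) and Fosl2 by 1.09 (SE 0.23, adjusted p = 0.0337). The Junb call was lost without anti-PD-L1 sample 1 (adjusted p = 0.0979), and the Fosb call without that sample (0.0533), isotype sample 3 (0.134) or anti-Lag3 sample 3 (0.139). The Fosl2 call was lost without isotype sample 1 (0.0739), anti-Lag3 sample 1 (0.34) or 3 (0.158), or anti-PD-L1 sample 1 (0.527) or 3 (0.126), and with the filter of filterByExpr (0.0656). The summed level of the 20 immediate-early genes was 1408 to 1615 CPM in the samples numbered 1, 1660 to 1811 in those numbered 2 and 1719 to 2068 in those numbered 3. The NF-kB inhibitor gene Nfkbia (0.51, adjusted p = 4.15e-06), the kinase gene Pim1 (0.63, adjusted p = 6.95e-04), Gadd45b (1.41, adjusted p = 0.00733) and Ctla4 (0.61, adjusted p = 0.00383) were also higher in number 3, and were picked from the 40 after their values were seen. These 4 were not refitted with a sample left out. By p, Xist and the Y-linked Ddx3y, Eif2s3y and Uty led the term at ranks 1 to 4, followed by Nfkbia and the Y-linked Kdm5d. The methods describe sorting of all 4 conditions together in batches and littermates of 1 sex spread over the groups, but do not say which samples shared a sort or a litter. The sex-linked genes separated numbers 1 and 3 fully, so sex and number cannot be told apart in that contrast, while isotype sample 2 differed from the other samples numbered 2. B cell markers summed to 329 to 391 CPM in the samples numbered 1, 344 to 426 in those numbered 2 and 406 to 433 CPM in those numbered 3, without overlap between numbers 1 and 3. All 8 of these markers had a positive difference between numbers 3 and 1, such as Ms4a1, which encodes CD20, at 1.76 (SE 0.71) and Ighm, the IgM heavy chain gene, at 0.19 (SE 0.08), and none was called (adjusted p = 1 for each). Their part in the members' differences was not tested. Total reads were 17489767 to 20190254 in the samples numbered 1 and 18711007 to 22151025 in those numbered 3.

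**Figure D5:**
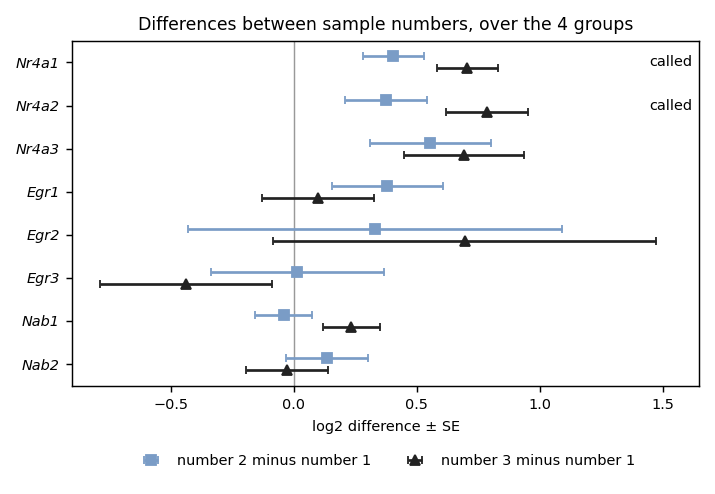
Log2 difference (± SE) between samples numbered 2 and 1 and between samples numbered 3 and 1 for each member, from the fit with group and number. Nr4a1 and Nr4a2 are called, all 3 NR4A genes lie at 0.69 to 0.79 for number 3 minus number 1, and Egr3 lies below 0.

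The correlations among members across samples are given as a description over 12 samples that share numbers and groups. Pearson's r of log2 CPM was 0.74 between Nr4a1 and Nr4a2, 0.68 between Nr4a1 and Nr4a3 and 0.55 between Nr4a2 and Nr4a3. Between NR4A and EGR genes r was -0.24 to 0.45, and among Egr1, Egr2 and Egr3 it was 0.07 to 0.44. Nab1 had r of 0.41 with Nr4a1, 0.44 with Nr4a2 and 0.56 with Nr4a3. Of 10440 other genes whose mean count reached 30, those most like Nr4a1 were Crip2 (r = 0.95), Sh3glb1 (0.92) and Casp6 (0.91), and those most like Nr4a2 were Junb (0.90), Brpf3 (0.88) and Pim1 (0.88). For Nr4a3 they were Saraf, Dcun1d4 and Slc35e2 (0.88 each), for Egr1 Zfp994 (0.84), Dtl (0.83) and Rpap2 (0.81), and for Egr2 Mrpl32 (0.90), Far1 (0.89) and Arrdc3 (0.87). For Egr3 they were Plcxd2 (0.91), Gm38120 (0.89) and Zfp560 (0.87), for Nab1 Cmc1 (0.91), Scfd2 (0.88) and Znrd1as (0.87), and for Nab2 Atp9a (0.87), Zswim6 (0.84) and Ift172 (0.83). Once the mean of each sample number was taken out, 4 of these 24 genes were still among the 3 most like their member. Named genes were picked for the 3 highest r among 10440 genes over 12 samples, which selects high values. No reference value of r for unrelated genes was computed.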

How the data were processed

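QuantSeq 3′ libraries of 12 samples were made from 5 ng of RNA with 18 PCR cycles and without molecular identifiers. Per the submitters' processing notes and the methods, the authors trimmed reads with cutadapt 1.18, mapped them with STAR 2.6.1a to GRCm38 and counted uniquely mapped reads with featureCounts 1.6.4. The deposited values are raw counts per gene, and the 114 spike-in rows were left out. The deposited rlog table was not used, and 0 columns of samples were left unused. Symbols came from GENCODE M21 (52073 of 56691 genes). The tests used edgeR 4.0.16 in R 4.3.3: TMM, 15138 genes with at least 30 reads in sum, 1 fit of 4 group means, quasi-likelihood tests and Benjamini-Hochberg adjustment at 0.05, with a prior count of 0.125 in fold changes. The fits were tested on simulated data. Each library is 1 mouse. Members, lists and likeness rule were chosen with earlier results of these data known: all 8 members, list genes called in any comparison, and the 3 most correlated genes per member (log2 CPM, prior count 2). Alternatives were DESeq2 1.42.0, other scaling and filters, a replicate block, only the groups compared, and each sample left out. The sample number term was added after seeing the data.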

Additional observations from a re-analysis of the deposited data

How the results depend on the processing

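No member was called in any comparison under any alternative run except Nr4a1 between CB and anti-Lag3 without the filter on low counts (1 member called, adjusted p = 0.0109). Of 384 member values under alternatives other than leaving out a sample, 2 changed sign, both close to 0 and both in the fit with the replicate number as a block: Nr4a1 between anti-PD-L1 and isotype at -0.046 and Egr1 in the interaction at 0.031. With the replicate block no member was called either, but 9 of 56 unadjusted p were under 0.05, all of NR4A genes. Nr4a1 was at -0.50 between CB and anti-Lag3 (adjusted p = 0.0622), -0.33 between CB and isotype (0.22) and -0.45 in the interaction (1). Nr4a3 was at -0.75 between anti-PD-L1 and isotype (adjusted p = 0.408), -0.70 between CB and isotype (0.166), -0.57 between CB and anti-Lag3 (0.515) and -0.63 between anti-PD-L1 and anti-Lag3 (1). Nr4a2 was at -0.52 between anti-PD-L1 and anti-Lag3 (adjusted p = 1) and 0.39 between anti-Lag3 and isotype (0.959). The sample numbers were not taken as pairs in the main fit. Over 18 pairs of same-numbered samples the correlation of deviations from the group means was -0.06 to 0.12, with 2 over 0.1. It was positive in every pair numbered 1 (0.014 to 0.12) and numbered 3 (0.043 to 0.086). All negative values were between samples numbered 2. Of 12 samples, 10 correlated best with another sample of their own number. The study reads principal component 2 of its expression data largely as an effect of the sorting batches. For Nr4a1 between CB and isotype the SE was 0.22 in the main fit and 0.14 with the block. The order of the 4 group means was kept for 3 to 7 of 8 members with 1 sample left out.

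The number of genes called moved more. With DESeq2 against 0 it was 56 between anti-PD-L1 and isotype, 9 between anti-Lag3 and isotype, 178 between CB and anti-PD-L1, 280 between CB and anti-Lag3, 10 between anti-PD-L1 and anti-Lag3 and 5 in the interaction. With DESeq2 against 0.2 the counts were 233 between CB and isotype and, in the order above, 11, 2, 18, 41, 8 and 2. Without the filter they were 40, 14, 150, 252, 2 and 10. With the block they were 23, 9, 137 and 208 in the first 4 of these and 4 in the interaction. With only the groups compared they were 3 between anti-PD-L1 and isotype, 4 between CB and anti-PD-L1 and 1 between anti-PD-L1 and anti-Lag3. With 1 sample left out the counts were 394 to 705 between CB and isotype, 0 to 10 between anti-PD-L1 and isotype, 0 to 1 between anti-Lag3 and isotype, 4 to 57 between CB and anti-PD-L1, 42 to 125 between CB and anti-Lag3, 0 to 1 between anti-PD-L1 and anti-Lag3 and 0 to 2 in the interaction. For the sample number they were 61 without the filter and 17 to 57 with 1 sample left out, with 0 to 2 members among them, and with filterByExpr 1 member was called, since Nr4a2 had an adjusted p of 0.0656. The cause of these shifts was not tested.

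With 1 sample left out, 51 of 672 member values in the comparisons changed sign, none of them called. The ranges of those results were, between CB and isotype, -0.13 to 0.30 for Nr4a2, and between anti-PD-L1 and isotype -0.27 to 0.31 for Nr4a1, -0.43 to 0.18 for Nr4a2, -0.26 to 0.25 for Egr1 and -0.18 to 0.33 for Nab2. Between anti-Lag3 and isotype they were -0.085 to 0.37 for Nr4a1 and -0.16 to 0.27 for Egr3. Between CB and anti-PD-L1 they were -0.079 to 0.44 for Nr4a2, -0.44 to 0.34 for Nr4a3, -0.035 to 0.48 for Egr3, -0.18 to 0.12 for Nab1 and -0.13 to 0.38 for Nab2. Between CB and anti-Lag3 they were -0.29 to 0.21 for Egr1, -0.34 to 0.30 for Egr2, -0.29 to 0.0020 for Nab1 and -0.19 to 0.056 for Nab2. Between anti-PD-L1 and anti-Lag3 they were -0.48 to 0.11 for Nr4a1 and -0.43 to 0.081 for Nab2. In the interaction they were -0.57 to 0.048 for Nr4a2, -0.31 to 0.46 for Nr4a3, -0.33 to 0.26 for Egr1, -0.15 to 0.43 for Egr3, -0.046 to 0.25 for Nab1 and -0.37 to 0.14 for Nab2. For number 3 minus number 1 they were -0.23 to 0.30 for Egr1 and -0.16 to 0.17 for Nab2.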
